A study of Oreochromis niloticus with 8 samples.

Results

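The genes described here carry cytokine signals from the cell surface to the nucleus through JAK kinases and STAT transcription factors, together with the SOCS proteins that shut these signals off. A list of 9 gene names was matched exactly against the gene identifiers of the deposited expression lists, which hold 29533 genes. Under those names 6 genes were found: the receptor gene il6st, the kinase gene jak1, the transcription factor gene stat3 and the feedback inhibitor genes socs3, socs1 and cish. The other 3 names, jak2, stat2 and pim1, were absent as identifiers. Genes that the RefSeq gene table names stat2, pim1, jak2a and jak2b are listed by number in the files and were counted with the other pathway genes.

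The RNA came from the midbrain of the Nile tilapia (Oreochromis niloticus), a cichlid fish of warm waters, and its polyadenylated fraction was sequenced in 8 libraries. The control group held 4 libraries from fish kept at normothermy and the cold group 4 libraries from cold-exposed fish. No allele, drug or other treatment is named for either group. The labels state neither the temperature and duration of the exposure nor the strain, age or sex of the fish. They also do not say that libraries came from separate fish. The p-values therefore measure only how much these libraries vary, which may be technical.

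In vertebrates, a cytokine such as interleukin-6 binds a receptor complex that contains the signal-transducing chain gp130, the product of il6st. Receptor-bound JAK kinases then phosphorylate STAT proteins, which enter the nucleus and switch on target genes. Among these targets are the SOCS genes, whose products bind receptors and JAK kinases and end the signal, so in mammals SOCS transcript levels are often read as a trace of recent cytokine signalling. In the brain the pathway is known from glial responses to injury and from leptin and growth hormone signalling.

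Levels are in TPM, transcript abundances corrected for gene length and scaled to a fixed library total, a unit that keeps no absolute depth. Each library summed to 1000000 TPM. Genes at 1 TPM or more numbered 18165 to 18506 in the control libraries and 17842 to 18055 in the cold libraries. Every cold library thus had fewer such genes than every control. Libraries of the same group correlated at r between 0.968 and 0.982 (across genes, log2 scale) and libraries of different groups at 0.943 to 0.963. Control 4 and cold 2 stood apart from the other libraries of their groups on the second principal component, and results that change without them are given with and without them. Markers of brain tissue were abundant: snap25, of the synaptic vesicle machinery, averaged 3808 TPM in the controls and the myelin gene mbpa 8561 TPM.

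Differences are cold minus control in log2(TPM + 1), which understates changes of low genes, tested with limma over all 18863 genes that reached a mean of 1 TPM in either group. A gene was called at a Benjamini-Hochberg adjusted p under 0.05. limma called 36.7% of all tested genes, 13.0% as higher and 23.6% as lower in cold, and 64.5% of the calls were lower. When the libraries were rescaled by the median of ratios, 47.4% of the calls were lower, so the split between rises and falls depends on the scaling. Over all tested genes the median log2 change was -0.09.

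All 6 genes passed the filter on low values, 3 of them rose in cold and 0 fell, beside 13.0% and 23.6% of all tested genes. The rises were those of the inhibitor genes socs3 and cish and of stat3. The call of stat3 was at the edge of the threshold (limma adjusted p = 0.0499) and was lost in 12 of 17 alternatives to the processing or the libraries used. The receptor gene il6st and the kinase gene jak1 measured nearly the same in both groups. For socs3 and cish all cold libraries lay above all controls, as they did for 13.4% of all tested genes, while 23.4% lay below and 36.9% in all had groups without overlap. The median log2 change of the 6 genes was 0.12. These are levels in bulk tissue, where fewer cells of a type and less RNA per cell cannot be told apart.

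**Figure D1:**
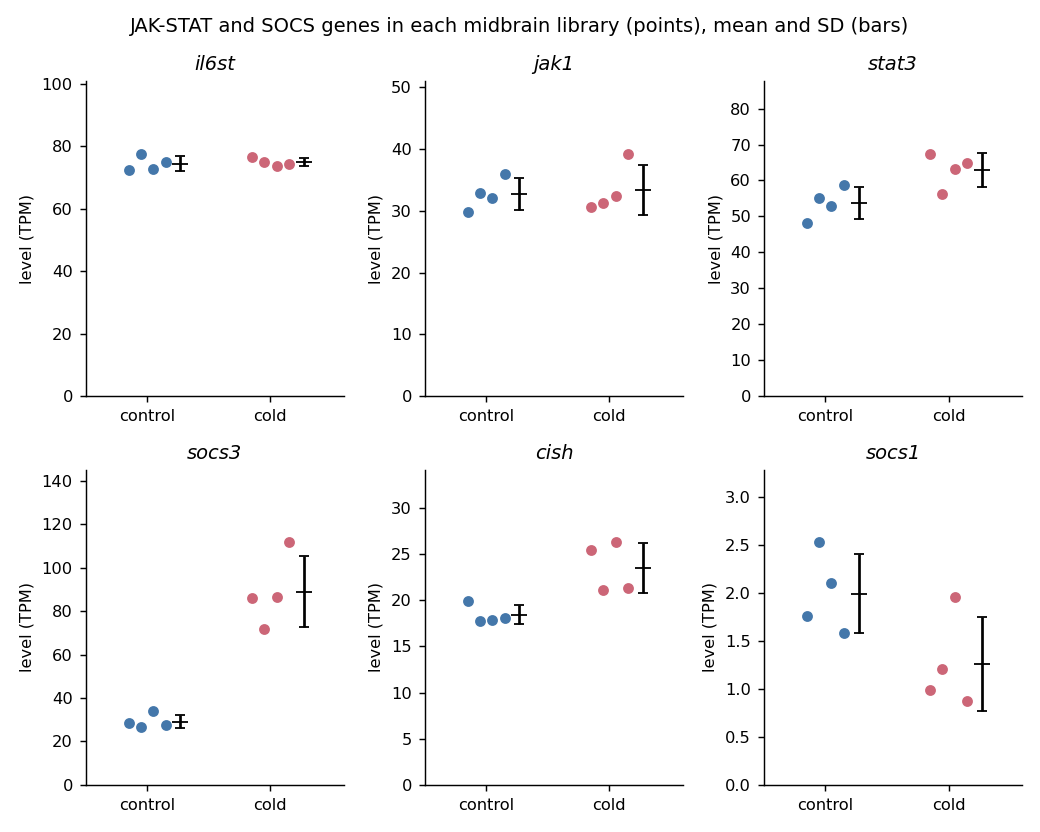
Levels of the 6 genes in TPM (vertical axes, starting at 0) in the 4 control and 4 cold libraries; points are libraries and bars show the mean with its SD. The 4 cold values of socs3, 71.8 to 112 TPM, lie above all 4 control values, 26.8 to 33.8 TPM, whereas the groups of il6st and jak1 overlap.

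The gene socs3 encodes the feedback inhibitor that binds gp130 and JAK kinases. It measured 28.5, 26.8, 33.8 and 27.6 TPM in control 1 to 4 and 86.1, 71.8, 86.6 and 112 TPM in cold 1 to 4. Every cold library was far above every control library, with cold 4 the highest. Its mean rose from 29.2 ± 3.17 to 89.1 ± 16.6 TPM (SD, n = 4 per group), 3.05-fold. The log2 change was 1.56 ± 0.13 (SE), with a 95% confidence interval of 1.27 to 1.86 and a limma adjusted p of 6.61e-05. An exact two-sided permutation test gave p = 0.0286, the smallest that 4 against 4 libraries allow. Among all 18863 tested genes, 97 had a larger log2 rise. Under the 17 alternatives tried, the log2 change stayed between 1.45 and 1.66 and the call was kept in all 17.

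The gene cish encodes CIS, an SH2-domain inhibitor known in mammals as a target and brake of STAT5. It measured 19.9, 17.8, 17.9 and 18.1 TPM in the controls and 25.4, 21.1, 26.2 and 21.3 TPM in the cold libraries. The lowest cold value lay just above the highest control value. Its mean rose 1.28-fold, from 18.4 ± 1.01 to 23.5 ± 2.699 TPM (SD, n = 4 per group). The log2 change was 0.33 ± 0.09 (SE), limma adjusted p = 0.0169 and exact permutation p = 0.0286. The call was kept in all 17 alternatives, with limma adjusted p up to 0.0455.

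The gene socs1, whose product inhibits JAK kinases after interferon signals, was the least abundant of the 6. It measured 1.76, 2.52, 2.10 and 1.59 TPM in the controls and 0.984, 1.20, 1.96 and 0.877 TPM in the cold libraries. Cold 3 lay within the control range and the other cold libraries below it. The means were 1.99 ± 0.415 and 1.26 ± 0.488 TPM, a log2 change of -0.42 ± 0.18 (SE) that was not called (limma adjusted p = 0.0988, exact permutation p = 0.0857). Without cold 3 it passed, with a log2 change of -0.56 and a limma adjusted p of 0.0342. So socs3 and cish rose, while the value of socs1 was below 0 and missed the threshold.

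The transcription factor gene stat3, which acts downstream of gp130, had a small difference at the edge of the threshold. It measured 48.3, 55.2, 52.8 and 58.7 TPM in the controls and 67.4, 56.1, 63.2 and 64.8 TPM in the cold libraries. Cold 2 lay inside the control range and the other 3 cold libraries above it. The mean rose 1.17-fold, from 53.7 ± 4.35 to 62.9 ± 4.83 TPM (log2 change 0.22 ± 0.08 SE, limma adjusted p = 0.0499, exact permutation p = 0.0571). The call was lost in 12 of 17 alternatives, among them leaving out control 1, 2 or 3 or cold 1, 3 or 4, where the limma adjusted p lay between 0.0754 (without control 2) and 0.119 (without cold 1). Without control 4 and cold 2 together it was 0.0153, with a log2 change of 0.32.

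No difference was detected in the receptor and kinase genes. The gp130 gene il6st, the most abundant of the 6 in control, measured 72.3, 77.6, 72.8 and 74.9 TPM in control and 76.7, 75.0, 73.8 and 74.3 TPM in cold. The cold values all lay within the control range. Its log2 change was 0.01, with a 95% confidence interval of -0.09 to 0.11 (limma adjusted p = 0.879). The kinase gene jak1, which many cytokine receptors use, measured 29.8, 32.9, 32.1 and 36.0 TPM in control and 30.6, 31.2, 32.4 and 39.2 TPM in cold. Cold 4 was the highest of all 8 libraries and the other cold values lay within the control range. Its log2 change was 0.02, with an interval of -0.18 to 0.23 (limma adjusted p = 0.860). After median-of-ratios scaling the log2 changes were 0.11 for il6st and 0.12 for jak1, again not called (limma adjusted p = 0.125 and 0.311).

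In control the order of mean levels was il6st, stat3, jak1, socs3, cish and socs1. Of the neighbours in that order, the ranges of jak1 and socs3 overlapped and the others did not. In cold socs3 came first, and its range overlapped that of il6st, which was followed by stat3, jak1, cish and socs1 without further overlap.

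Ratios between genes within a library do not depend on how whole libraries are scaled. The reference gene il6st and the 7 ratios were chosen after the values were seen. The ratio of socs3 to il6st was 0.346 to 0.465 in the control libraries and 0.958 to 1.504 in the cold libraries. The groups were separated, as they were for cish to il6st (0.229 to 0.275 and 0.281 to 0.356). For stat3 to il6st the ranges overlapped (0.668 to 0.783 and 0.749 to 0.879), as they did for jak1 to il6st and socs1 to il6st. The exact permutation p was 0.0286 for the 4 ratios whose groups did not overlap, which is 0.05 after Benjamini-Hochberg adjustment over the 7 ratios and so not below the threshold. It was 0.0571 for stat3, 0.0857 for socs1 and 0.886 for jak1 relative to il6st.

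By the root mean square distance between log2 profiles, each centred on its mean over the 8 libraries, the genes closest to socs3 among 13248 candidates with a symbol were orc1, of the DNA replication origin complex, the chromatin ATPase gene atad2 and the chromosome cohesion gene sgo1. Their distances were 0.101, 0.120 and 0.125 log2 units. The levels of atad2 were 8.67 ± 0.536 TPM in control and 29.5 ± 2.67 TPM in cold. Those of orc1 (1.03 and 5.04 TPM) and sgo1 (0.433 and 3.44 TPM) were lower, and their likeness depends on the 1 TPM added before the log. With 0.1 TPM added, the log2 change was 2.19 for orc1 and 2.76 for sgo1, beside 1.59 for socs3 and 1.75 for atad2. Closest to cish were dnajb12a, the receptor kinase gene grk6 and the mitochondrial import gene timm22 (distances 0.0607 to 0.0662), and closest to stat3 were pxdc1, the mitochondrial channel gene vdac3 and snapc3 (0.0301 to 0.0461). These genes were picked for their likeness, so their own changes are no further result.

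The other kinases, STAT factors, inhibitors and adaptors of the pathway comprised 34 genes, of which 33 were tested. limma called 10 of them higher and 3 lower in cold, beside 13.0% and 23.6% of all tested genes. Their median log2 change was 0.20, beside -0.09 for all tested genes. After median-of-ratios scaling the counts were 16 higher and 1 lower. That scaling also moved the calls over all tested genes, from 2455 to 3503 higher and from 4459 to 3158 lower. Among the other pathway genes the count of falls was 1 without cold 3, 5 without cold 4 and 1 without control 4 and cold 2 together.

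**Figure D2:**
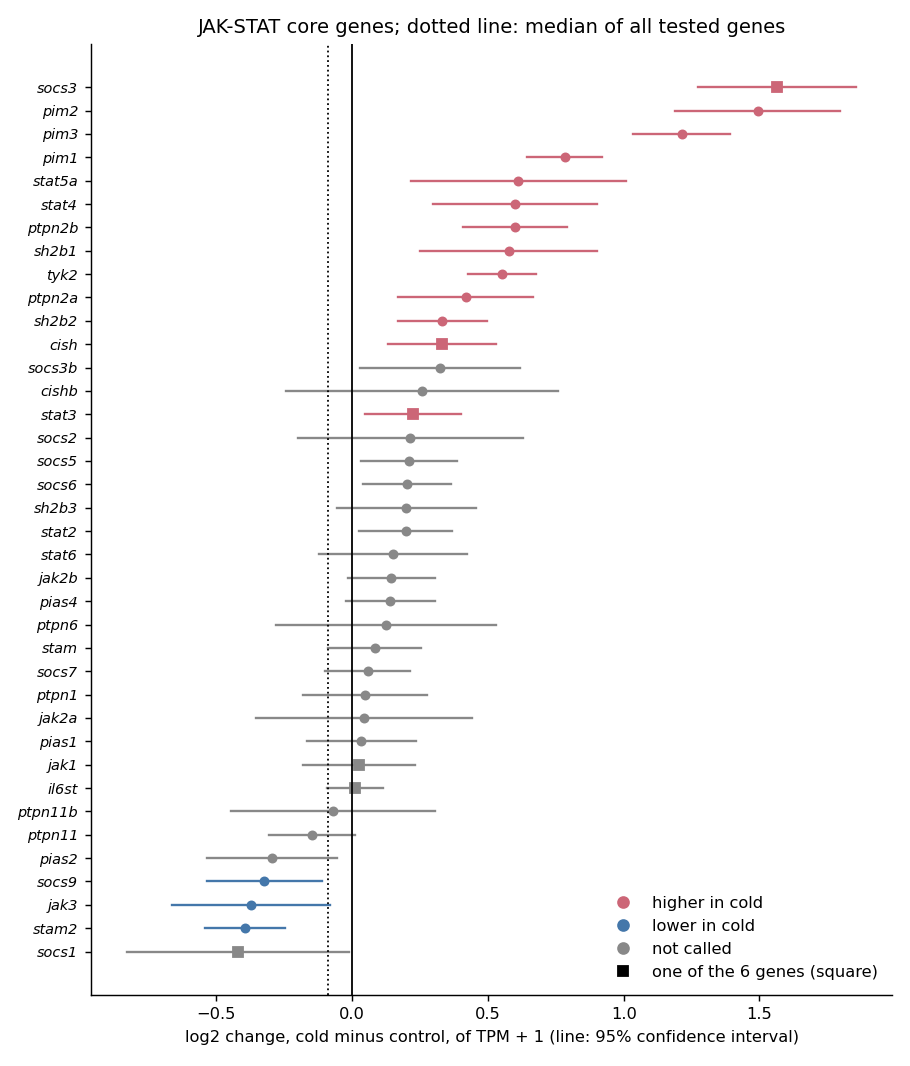
Log2 change in log2(TPM + 1), cold minus control (horizontal axis), of the 6 genes (squares) and other tested pathway genes (circles), with 95% confidence intervals; red is higher, blue lower and grey not called. The solid line marks 0 and the dotted line the median of all tested genes; socs3 and the 3 PIM genes stand at the top.

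The PIM genes encode kinases that promote cell survival and are induced by STAT3 and STAT5 in mammals. All 3 tested genes that carry a symbol rose, beside 13.0% of all tested genes. Any further copies listed by number without a symbol could not be identified. The gene named pim1 measured 39.7, 38.4, 39.0 and 40.2 TPM in control and 66.3, 62.5, 71.6 and 73.5 TPM in cold, 1.74-fold higher in cold (log2 change 0.78 ± 0.06 SE, limma adjusted p = 4.91e-05). Its control libraries lay close together and far below the lowest cold library. The most abundant, pim3, measured 57.6, 53.8, 56.4 and 46.8 TPM in control and 117, 127, 120 and 138 TPM in cold. It rose 2.34-fold, with a limma adjusted p of 2.20e-05, and its groups were widely separated. The low gene pim2 went from 1.85 ± 0.336 to 7.03 ± 1.05 TPM, 3.80-fold, with no overlap. The calls of the 3 PIM genes held in all 17 alternatives.

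**Figure D3:**
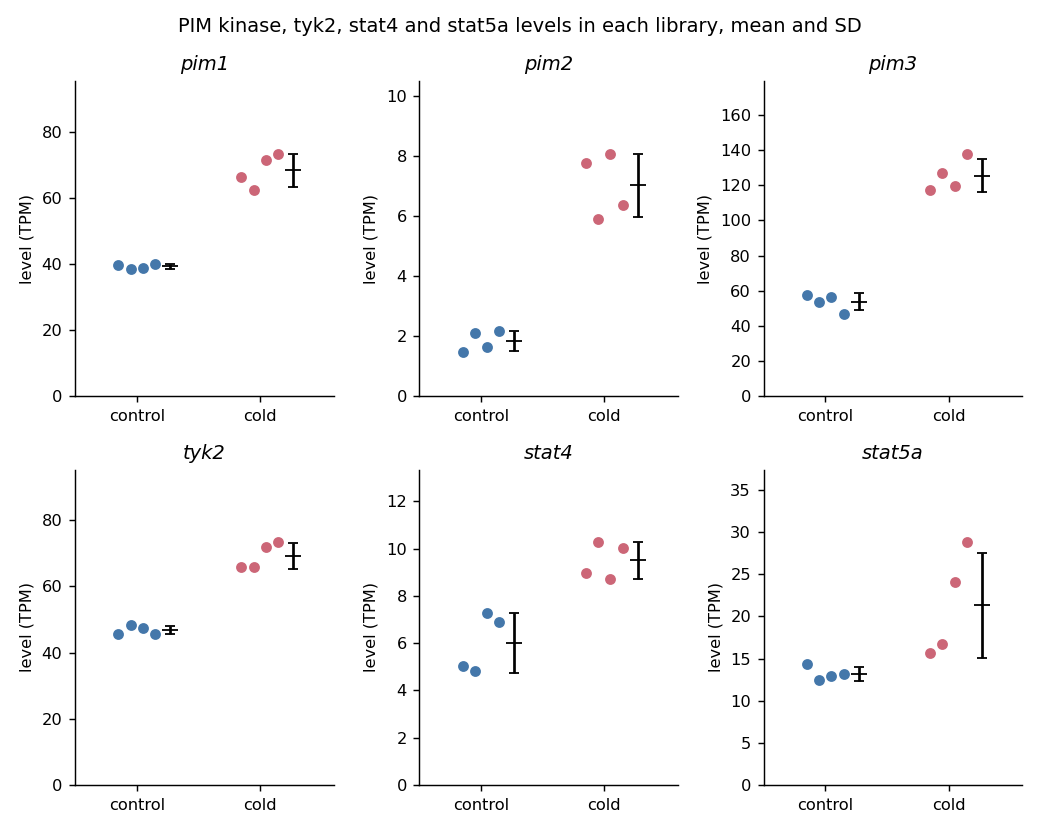
Levels in TPM (vertical axes, starting at 0) of the 3 PIM kinase genes, tyk2, stat4 and stat5a in the 4 control and 4 cold libraries, with mean and SD. The groups do not overlap in any of the 6 panels, and stat5a is spread from 15.7 to 28.8 TPM among the cold libraries.

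Among the JAK kinases, tyk2 rose and jak3 fell, and jak2a and jak2b were not called. The gene tyk2, whose kinase serves interferon and interleukin-12 receptors, measured 45.7, 48.3, 47.4 and 45.7 TPM in control and 65.8, 65.8, 71.9 and 73.3 TPM in cold. The groups were separated by a wide gap, and the rise was 1.48-fold (log2 change 0.55 ± 0.06 SE, limma adjusted p = 0.000156). The ratio of tyk2 to jak1 within a library went from 1.44 ± 0.115 in control to 2.09 ± 0.153 in cold. The gene jak3, of the kinase known from lymphocyte receptors, went from 5.12 ± 0.7996 to 3.71 ± 0.485 TPM with overlapping groups (limma adjusted p = 0.0492). Its call was lost in 12 of 17 alternatives, with limma adjusted p up to 0.189 (without control 4 and cold 2), among them median-of-ratios scaling and leaving out control 2, 3 or 4 or cold 1, 2 or 3. Levels of jak2a were 13.0 ± 2.14 and 13.6 ± 3.36 TPM and those of jak2b 15.4 ± 0.904 and 17.2 ± 1.02 TPM in control and cold. The log2 changes were 0.04 (95% confidence interval -0.35 to 0.44) and 0.14 (-0.02 to 0.30). All cold values of jak2b lay above all its control values, and after median-of-ratios scaling jak2b was called higher (limma adjusted p = 0.0316).

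Besides stat3, whose call was at the edge of the threshold, the STAT genes stat4 and stat5a rose. The gene stat4, whose product answers interleukin-12, measured 5.03, 4.80, 7.26 and 6.90 TPM in control and 8.98, 10.3, 8.71 and 10.03 TPM in cold (log2 change 0.60 ± 0.13 SE, limma adjusted p = 0.00784). Every cold library exceeded every control. The gene stat5a, of a factor that serves growth hormone and prolactin receptors, measured 14.4, 12.4, 12.9 and 13.2 TPM in control and 15.7, 16.8, 24.1 and 28.8 TPM in cold. Cold 3 and cold 4 were far above cold 1 and cold 2, which lay just above the controls. Its log2 change was 0.61 ± 0.18 (SE, limma adjusted p = 0.0239), and the call was lost without control 2, control 3 or cold 3 (limma adjusted p = 0.0585, 0.0553 and 0.0641). The interferon signalling gene stat2 measured 43.7, 44.0, 41.5 and 37.4 TPM in control and 46.6, 43.5, 52.1 and 49.3 TPM in cold. Cold 2 lay within the control range, and the difference was not called (log2 change 0.20, limma adjusted p = 0.0694). It passed without cold 2 (log2 change 0.24, 0.0393 by limma) and after median-of-ratios scaling (0.29, 0.0115 by limma).

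Of the 10 tested genes of the SOCS family that carry a symbol, 2 rose, socs3 and cish, and 1 fell, beside 13.0% and 23.6% of all tested genes. The second socs3 copy, socs3b, averaged 4.97 ± 0.757 TPM in the controls and 6.47 ± 0.977 TPM in the cold libraries, with overlapping groups and no call (log2 change 0.32, limma adjusted p = 0.0815). The ratio of socs3 to socs3b was 5.31 to 6.55 in the control libraries and 10.6 to 15.5 in the cold libraries. The second cish copy, cishb, named after its values were seen, averaged 2.10 TPM in control and 2.75 TPM in cold. Its groups overlapped and it was not called (limma adjusted p = 0.398). The fall was that of socs9, from 8.50 ± 0.292 to 6.62 ± 0.775 TPM (limma adjusted p = 0.0243). Its call was lost without control 2, control 4 or cold 3 (limma adjusted p = 0.0527, 0.0589 and 0.0525) and without control 4 and cold 2 together (0.0871). It was also lost after median-of-ratios scaling (limma adjusted p = 0.0691) and with replicate number added to the model (0.0542). Levels of socs5 (20.7 and 24.2 TPM) and socs6 (12.03 and 14.0 TPM) missed the threshold (limma adjusted p = 0.0632 and 0.0538). After median-of-ratios scaling socs3b, socs5 and socs6 were called higher (limma adjusted p = 0.0363, 0.0112 and 0.0101). How reads of near-identical copies were counted is not stated, and values of a gene with such a copy are uncertain for that reason.

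Of 6 genes of phosphatases that act on this pathway 2 rose and 0 fell, beside 13.0% and 23.6% of all tested genes. The rises were those of the 2 copies of ptpn2, whose product removes phosphate from JAK and STAT proteins. The copy ptpn2b measured 15.5, 15.9, 15.4 and 17.3 TPM in control and 24.2, 21.6, 26.8 and 26.9 TPM in cold. All cold libraries lay above all controls, and the rise was 1.55-fold (log2 change 0.60 ± 0.08 SE, limma adjusted p = 0.000840). The copy ptpn2a rose from 7.33 ± 0.713 to 10.2 ± 1.35 TPM (limma adjusted p = 0.0170), a call lost without control 4 and cold 2 together (0.0570). Of the 3 PIAS genes, named as inhibitors of activated STAT, 0 were called, beside 36.7% of all tested genes. After median-of-ratios scaling pias4 was called higher (log2 change 0.23, limma adjusted p = 0.0280). Among adaptor genes, sh2b1, whose product binds JAK2, rose from 5.998 ± 1.43 to 9.28 ± 0.519 TPM (limma adjusted p = 0.0132, and 0.0656 without control 4 and cold 2). The related sh2b2 rose from 31.3 ± 2.02 to 39.7 ± 2.99 TPM and the endosomal adaptor gene stam2 fell from 17.1 ± 0.759 to 12.8 ± 0.562 TPM (limma adjusted p = 0.00733 and 0.00184).

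Of 25 tested genes of receptors that signal through JAK kinases 28% were called, 3 higher and 4 lower, beside 36.7% of all tested genes (13.0% higher and 23.6% lower). Their median log2 change was -0.10, near that of all tested genes, -0.09. Partners of gp130 were among the falls. The ciliary neurotrophic factor receptor gene cntfr measured 41.4, 42.5, 45.3 and 51.9 TPM in control and 33.2, 30.6, 32.0 and 31.9 TPM in cold. All cold libraries lay below all controls (log2 change -0.49 ± 0.08 SE, limma adjusted p = 0.00137). The oncostatin M receptor gene osmr, named after its values were seen, fell from 5.05 ± 1.11 to 2.73 ± 0.209 TPM (adjusted p = 0.00507 by limma). The granulocyte colony-stimulating factor receptor gene csf3r, which is also a neutrophil marker, fell from 4.73 ± 0.695 to 2.32 ± 0.293 TPM (adjusted p = 0.00143 by limma).

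The gp130 partner genes lifra (38.8 to 44.3 TPM in control, 34.1 to 43.5 TPM in cold) and il6r (1.07 to 1.94 and 1.01 to 1.46 TPM) had overlapping groups and were not called. The leptin receptor gene lepr rose from 5.80 ± 0.988 to 9.53 ± 0.965 TPM (limma adjusted p = 0.00432) and csf2rb, of a shared cytokine receptor chain, from 3.60 ± 0.601 to 6.24 ± 0.919 TPM (limma adjusted p = 0.00497). Also named after their values were seen, crlf1a rose (2.90 to 5.26 TPM) and the growth hormone receptor gene ghr fell (8.81 to 5.45 TPM). The other listed gene of this receptor, ghr1, likewise named after its values were seen, had overlapping groups (means 6.16 and 4.85 TPM). It was not called (limma adjusted p = 0.121). The call of crlf1a was lost without control 1, control 2 or cold 1 (limma adjusted p = 0.0596, 0.0508 and 0.0580) and with replicate number added to the model (0.0521). That of ghr was lost without control 1, control 3, control 4 or cold 4 (limma adjusted p = 0.0569, 0.0892, 0.0915 and 0.0564), after median-of-ratios scaling (0.0589) and with no filter on low values (0.0617). Without control 4 and cold 2 together the log2 change of ghr shrank from -0.63 to -0.34 (limma adjusted p = 0.0770).

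Most genes of cytokines and hormones that act through JAK kinases were scarcely detected. Of 22 found in the files, 9 reached a mean of 1 TPM in a group. Of these 22.2% were called, 2 higher and 0 lower, beside 36.7% of all tested genes (13.0% higher and 23.6% lower). The genes il22, prl and gh1 reached the filter only in cold and were not called. For prl this rested on cold 3 (6.59 TPM) and for gh1 on cold 4 (11.0 TPM). The gene il10, of an anti-inflammatory cytokine that signals through STAT3, measured 2.28, 4.98, 2.45 and 4.47 TPM in control and 8.80, 8.50, 6.67 and 10.2 TPM in cold. Each cold library lay above each control, and the rise was 2.41-fold (log2 change 1.11 ± 0.22 SE, limma adjusted p = 0.00433). The gene csf3a, of a colony-stimulating factor, rose from 6.34 ± 2.13 to 11.3 ± 2.07 TPM (limma adjusted p = 0.0198, and 0.0502 without control 1 and 0.0541 without cold 3). Without control 1, 3 receptor and cytokine genes were called higher in place of 5. The gp130 cytokine gene m17, related to leukaemia inhibitory factor and named after its values were seen, stayed below the filter in both groups, at 0.125 to 0.608 TPM in control and 0.644 to 1.102 TPM in cold. The leptin gene lepb, also below the filter and named after its values were seen, was lower in cold. It measured 0.138 to 1.116 TPM in control and 0.0273 to 0.0825 TPM in cold. The interleukin-11 genes il11a and il11b did not exceed 0.189 TPM in any library.

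**Figure D4:**
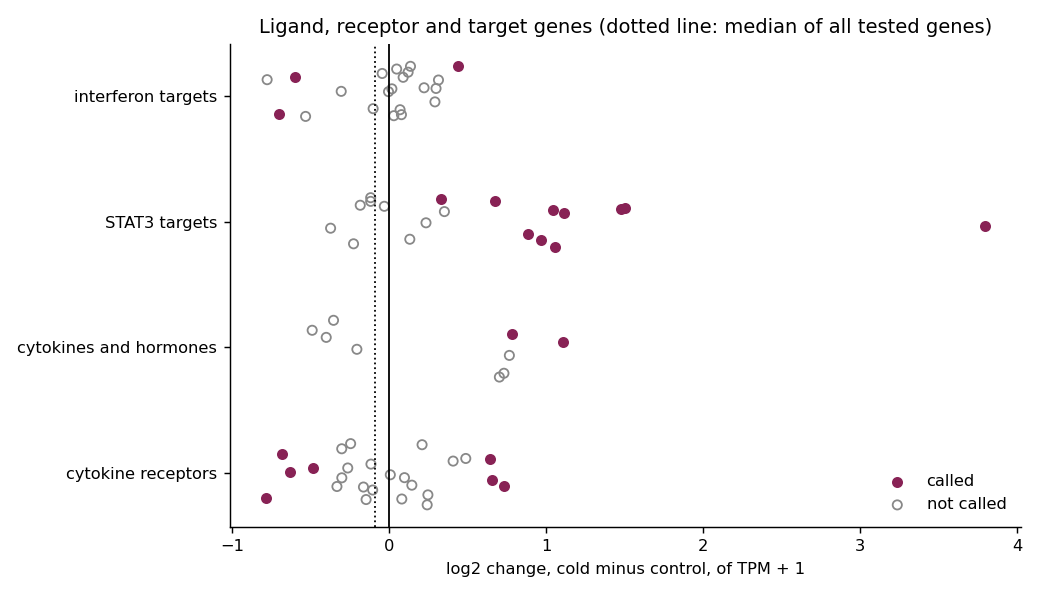
Log2 change in log2(TPM + 1), cold minus control (horizontal axis), of the tested cytokine receptor, cytokine and hormone, STAT3 target and interferon target genes; filled points were called by limma and the vertical position within a row is random. All 10 called STAT3 targets lie to the right of 0, and receptors lie on either side.

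Of 19 tested genes known in mammals as STAT3 or interleukin-6 targets, 10 rose and 0 fell, beside 13.0% and 23.6% of all tested genes. Their median log2 change was 0.35, beside -0.09 over all tested genes. The list was chosen with earlier results of these data known, so the count and the median are a description and not a test. A further 5 listed targets were below the filter in both groups, among them nfkbiz, named after its values were seen, at 0.744 to 1.145 TPM in control and 0.245 to 0.395 TPM in cold. The count of 10 includes ptgs2, which passed the filter only through the cold group, where it is high, so its call adds no support. The rise of lowest p was that of bcl6ab, of a transcriptional repressor, which measured 5.97, 6.42, 6.13 and 7.30 TPM in control and 13.0, 14.4, 12.9 and 17.5 TPM in cold (limma adjusted p = 0.000203). Each cold library exceeded each control by a wide margin. The survival gene mcl1b rose from 105 ± 12.5 to 167 ± 5.91 TPM and the acute-phase transcription factor gene cebpd from 33.1 ± 4.16 to 73.5 ± 13.9 TPM (limma adjusted p = 0.000329 and 0.000502). The related gene cebpb rose 1.99-fold. Named after their values were seen, irf1b rose from 7.66 ± 2.84 to 22.8 ± 7.21 TPM and ccnd1 from 4.38 ± 0.413 to 5.77 ± 0.575 TPM. The level of ptgs2 was 0.337 ± 0.184 TPM in control and 1.79 ± 0.419 TPM in cold. The call of ccnd1 was lost in 9 of 17 alternatives, among them leaving out control 1, 3 or 4 or cold 1, 2 or 4, with limma adjusted p up to 0.0841 (without control 3; 0.0824 without control 4 and cold 2 together). The remaining rises, also named after their values were seen, were those of junbb (46.1 to 85.2 TPM), fosab (15.9 to 42.0 TPM) and hamp. The rise of hamp, from 3.30 ± 3.32 to 49.6 ± 20.9 TPM, was the largest among the 19 tested targets. It was 15.0-fold (log2 change 3.79, limma adjusted p = 0.000792).

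Targets not called included gfap, of the glial filament protein, at 315 to 477 TPM in control and 218 to 508 TPM in cold, and myc, at 10.8 to 13.1 and 11.7 to 16.4 TPM. Named after their values were seen, fosaa and bcl6, related to the called fosab and bcl6ab, were also not called (limma adjusted p = 0.755 and 0.136). Their means in control and cold were 23.3 and 22.8 TPM for fosaa and 2.92 and 4.00 TPM for bcl6. Many of these genes are also targets of other signals, whose part in these values was not tested.

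Of 21 tested genes known as interferon targets 1 rose and 2 fell, beside 36.7% of all tested genes called in either direction, and their median log2 change was 0.05. The RNA-editing gene adar fell from 25.8 ± 1.151 to 16.7 ± 0.680 TPM (limma adjusted p = 0.000168) and the nucleotide kinase gene cmpk2 from 6.17 ± 1.43 to 3.39 ± 0.801 TPM (limma adjusted p = 0.0156). The rise was that of samhd1 (2.83 to 4.23 TPM, limma adjusted p = 0.0285), which was lost without control 1, control 2, cold 2 or cold 3 (0.0605, 0.0730, 0.0680 and 0.0781), and without control 4 and cold 2 together (0.0885). It was also lost with no filter on low values (limma adjusted p = 0.0537) and with replicate number added to the model (0.0609). The interferon factor genes irf7 (5.58 to 6.45 and 4.81 to 7.10 TPM) and irf9 (11.0 to 14.9 and 12.1 to 19.5 TPM) had overlapping groups.

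Counts of called markers of other cell types are to be read beside the shares over all tested genes, 36.7% called, 13.0% higher and 23.6% lower. Of 14 tested microglial and macrophage markers 42.9% were called, 1 higher and 5 lower, and their summed level was 2329 to 3741 TPM in control and 3098 to 3569 TPM in cold. The microglial receptor gene p2ry12, named after its values were seen, was among the falls (25.2 to 2.25 TPM) and the most abundant markers, apoeb (1133 to 1330 TPM) and cd74b (755 to 977 TPM), were not called. With cd74 (751 to 796 TPM, also not called) they held most of the summed level, which says little of the less abundant markers. Of 18 endothelial and mural markers 55.6% were called, 2 higher and 8 lower, with sums of 357 to 480 TPM in control and 322 to 419 TPM in cold.

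Of 14 radial glial and astroglial markers 35.7% were called, close to the share of all tested genes, with 0 higher and 5 lower (sums 8478 to 9581 and 7015 to 9162 TPM). Among 7 neutrophil markers, csf3r included, 2 rose and 3 fell, with sums of 55.9 to 82.0 TPM in control and 65.4 to 77.1 TPM in cold. The rises include mmp13a (0.697 and 3.38 TPM), which passed the filter only through the cold group, so its call adds no support. Of 10 lymphocyte markers 0 rose and 1 fell (32.6 to 37.9 and 23.1 to 35.4 TPM), and rag2, a marker of immature lymphocytes, was at 0 in every library. The part of these cell types in the changes of socs3, cish, stat3, jak3, csf3r and the other pathway genes was not tested.

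**Figure D5:**
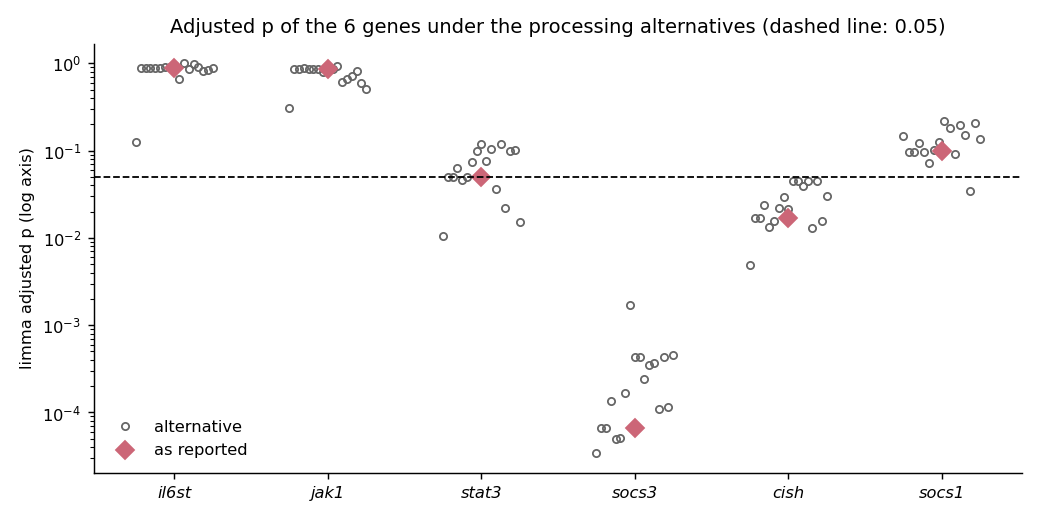
limma adjusted p (vertical axis, log scale) of the 6 genes as reported (diamonds) and under the processing alternatives (circles), with the threshold of 0.05 dashed. Every circle of socs3 and cish lies below the line, those of il6st and jak1 lie above it, and those of stat3 fall on either side.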

How the data were processed

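RNA was extracted with TRIzol, captured with poly(dT) beads and made into TruSeq libraries, per the labels' protocols. The submitters' processing notes name HISAT2. The counting program, genome build, annotation, versions and strand handling are not stated there. The authors deposited 1 list of TPM values per library. The unit was read from the values, since each list sums to 1000000. TPM keeps no depth, so no counting interval is given and precision rests on the 4 libraries per group. No coordinates or sequences are printed, because the build is not named.

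The gene test was limma (version 3.58.1, R 4.3.3) on log2(TPM + 1), trend on, robust off, no covariates, for genes whose mean reached 1 TPM in control or cold. The test was two-sided, with Benjamini-Hochberg adjustment over all tested genes. It was also run on simulated data with independent normal noise and far fewer changed genes than were called here. That run therefore does not show how reliable the calls described here are. Single genes and ratios also had exact permutation tests over all 70 assignments of 4 libraries to a group. Of 19370 genes listed by number, 6153 received a symbol from the RefSeq table of assembly O_niloticus_UMD_NMBU. A plan to find further copies by product description could not be carried out, since that table has no descriptions.

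The 6 genes and the gene lists were chosen with earlier results of these data known. Their counts beside the shares of all tested genes are therefore a description and not a test. Named genes were the 6 genes, called pathway genes, up to 4 called genes of lowest p per list, the 3 nearest profiles and abundant markers, and others are marked as named after their values were seen. Alternatives covered scaling, pseudocount, filter, limma options, a replicate block and left-out libraries. A pathway gene that is part of the counts is not reported here by itself and is not plotted.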

Additional observations from a re-analysis of the deposited data

Results flagged for a closer look

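In groups of 4 libraries, 4 of 102 groups held a library far from its neighbours by Dixon's test of the gap over the range. Chance flags about 1 in 20 groups, and no explanation was tested. The gene cish measured 19.9 TPM in control 1, against 17.8 to 18.1 TPM in the other controls. The adaptor gene stam2 measured 16.0 TPM in control 1, against 17.4 to 17.6 TPM. The gene mcl1b measured 124 TPM in control 3, against 98.0 to 99.4 TPM. The gene adar measured 17.7 TPM in cold 4, against 16.3 to 16.4 TPM in the other cold libraries.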

How the results depend on the processing

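Of 918 pairs of a gene or ratio with a setting, 831 were counted as unchanged, and 77 lost and 6 gained a call. The pairs covered the 6 genes, listed genes that were already called, stat2, the nearest profiles and the ratios. Most uncalled genes were left out, so gained calls are undercounted. The genes jak2b, pias4, socs3b, socs5 and socs6, called higher only after median-of-ratios scaling, were not in this set. A gene counted as unchanged kept its direction and its side of the threshold. A ratio counted as unchanged moved by less than its SD within groups, and whether its direction changed was not counted. The other 4 were genes that changed sign, all uncalled: jak1 at -0.019 without control 1 and -0.054 without cold 4 (with 1 library left out, -0.054 to 0.070), and il6st at -0.0029 without control 1 and -0.0011 without cold 1 (-0.0029 to 0.030). Median-of-ratios scaling, which moved the median log2 change of all genes by 0.0895, gave 16 other pathway genes higher and 1 lower. Over all genes it gave 3503 higher and 3158 lower. The lower count of the other pathway genes was also 1 with the replicate block and without control 4 and cold 2 together. Interferon targets higher in cold numbered 0 with no filter, at a 5 TPM filter, with the replicate block and without control 4 and cold 2. With no filter 1 STAT3 target was lower. With 1 library left out, the 6 genes gave 2 to 3 higher and 0 to 1 lower, other pathway genes 9 to 12 higher and 1 to 5 lower, receptors and ligands 3 to 5 higher, and interferon targets 0 to 1 higher. No pairing of the libraries by replicate number was detected. Same-numbered deviations correlated at -0.0083, -0.15, 0.054 and -0.23, and 0 of 8 libraries lay closest to their own number. With the replicate block, limma called 2025 genes higher and 3617 lower, and stat3 had an adjusted p of 0.1004. Low TPM values limit socs1, pim2 and most cytokine genes, and absolute depth is unknown.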
